A study of Mus musculus with 21 samples.

Results

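The genes described here, 7 in number, serve the movement of sodium and calcium out of the cytosol, and were followed in mouse spiral ganglion neurons, the neurons that carry sound information from the hair cells of the cochlea to the brainstem. They were Atp1b1 and Atp1b2, which encode β subunits of the Na/K-ATPase, Atp2b1, Atp2b2 and Atp2b3, which encode plasma membrane calcium pumps, Atp2a2, which encodes the calcium pump SERCA2 of the endoplasmic reticulum, and Slc8a1, which encodes the Na/Ca exchanger NCX1. These genes were chosen by symbol, with earlier results of these data known, as 7 of the 21878 lines of the count table. All 7 passed the filter on low counts that kept 14968 genes.

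The libraries were prepared by the Smart-seq2 method from polyA RNA of about 50 neurons each, which had been collected by micropipette from mouse cochleae at postnatal day 7. All animals received an adeno-associated virus (AAV), and the genotype is given as wild type for the controls. The virus carried EGFP in the control (4 libraries from the apex and 4 from the base of the cochlea), a site-mutated, dominant-negative HCN2 channel in DN-mHCN2 (4 from the apex, 3 from the base), or a truncated, dominant-negative SK3 channel (3 from each region). HCN2 is a channel that opens on hyperpolarization, and SK3 is a potassium channel that calcium opens. The promoter of the viruses and the animals behind each library are not given in the sources used here, so p-values measure the spread between libraries. With libraries from pools of neurons, fewer cells of a type and less RNA per cell cannot be told apart.

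Library totals ran from 10411634 to 15138780 counts, and levels are given as CPM, the counts of a gene scaled to a common library total with TMM factors. The 12 markers of spiral ganglion neurons were each at 1 CPM or more in every library, with a sum between 9626.5 and 19131 CPM. Markers of Schwann cells and satellite glia were also at 1 CPM or more in every library (sum 9206 to 41816 CPM), so the libraries held RNA of other cells besides neurons. The level of Hcn2 was 14.6 to 122 CPM in DN-mHCN2 and 9.84 to 89.8 CPM in control libraries, and Kcnn3, the gene of SK3, was at most at 1.94 CPM in all 21 libraries, so these counts did not mark the libraries that received a construct.

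The Na/K-ATPase uses ATP to export sodium and import potassium, and its β subunit is needed for the pump to reach the membrane. Plasma membrane calcium pumps and Na/Ca exchangers return calcium to the outside after a neuron has fired, the exchanger by using the sodium gradient that the Na/K-ATPase maintains, while SERCA pumps calcium into the endoplasmic reticulum. In the cochlea, Atp2b2 is known as the calcium pump of the hair cell bundle, whose loss causes deafness in mice, and Atp1b2 is known as a subunit of the pump in marginal cells of the stria vascularis.

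The RefSeq promoter table (GRCm38.p6) held 7 promoters of 4 of the genes. Of these, 1 each of Atp1b1, Atp2b2 and Slc8a1 is printed. Atp1b1 is the gene with the highest level per length. Atp2b2 is the pump with the lowest adjusted p under DN-mHCN2 over both regions, and Slc8a1 the exchanger with the lowest level per length. Each run is the 250 bases before a RefSeq start, 5′ to 3′ on the strand of the gene. All 3 lie on the minus strand, at chr1:164458356-164458605, chr6:114042081-114042330 and chr17:81738388-81738637. Capitals mark matches, on either strand, to the letters of a GC box (GGGCGG, read as CCGCCC on the other strand) or a CCAAT box (CCAAT, read as ATTGG).
Atp1b1: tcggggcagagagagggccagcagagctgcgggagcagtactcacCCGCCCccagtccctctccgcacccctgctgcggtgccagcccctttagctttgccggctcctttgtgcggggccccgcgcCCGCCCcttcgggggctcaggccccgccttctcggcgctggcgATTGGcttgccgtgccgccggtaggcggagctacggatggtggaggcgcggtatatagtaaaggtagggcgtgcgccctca
Atp2b2: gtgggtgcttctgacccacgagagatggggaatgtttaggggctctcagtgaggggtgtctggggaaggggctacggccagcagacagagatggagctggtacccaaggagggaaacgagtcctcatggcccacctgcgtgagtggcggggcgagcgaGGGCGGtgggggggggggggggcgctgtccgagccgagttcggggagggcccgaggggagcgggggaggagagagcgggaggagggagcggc
Slc8a1: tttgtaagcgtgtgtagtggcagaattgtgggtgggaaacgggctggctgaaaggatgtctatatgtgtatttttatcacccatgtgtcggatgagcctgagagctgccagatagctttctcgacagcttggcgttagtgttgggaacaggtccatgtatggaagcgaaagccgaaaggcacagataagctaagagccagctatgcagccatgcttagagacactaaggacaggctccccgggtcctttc
The run of Atp1b1 held 2 GC boxes and 1 CCAAT box, that of Atp2b2 held 1 GC box, and that of Slc8a1 held neither. A GC box was found in 32.7% and a CCAAT box in 33.8% of 32851 RefSeq promoters of the same length. None of the 3 held TATAAA (12.4% of promoters), CACGTG (6.02%), TGACGTCA (1.55%) or AAGGTCA (4.08%). Their GC content was 70.4% for Atp1b1, 69.6% for Atp2b2 and 50.4% for Slc8a1, against a median of 52.4% over all promoters. The other promoters of Atp2b2, not printed, had a GC content of 52% (0 GC boxes) and 55.6% (1 GC box). Such matches describe the letters and do not show binding.

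The order of the levels was set by dividing CPM by the length of the longest transcript in GENCODE M21. Atp1b1 was highest, with 1008 ± 161 CPM per kb (SD, n = 21 libraries), and lay above the next gene in 21 of 21 libraries. Slc8a1 was lowest, with 1.59 ± 0.827 CPM per kb, and lay below Atp2b3 in 21 of 21 libraries. Between these ends the mean levels were 50.7 CPM per kb for Atp2a2, 45.3 for Atp1b2, 35.0 for Atp2b2, 29.8 for Atp2b1 and 15.4 for Atp2b3. The ranges of neighbours in this middle part overlapped. Atp1b2 lay above Atp2b2, the next gene by mean, in 5 of 21 libraries.

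**Figure D1:**
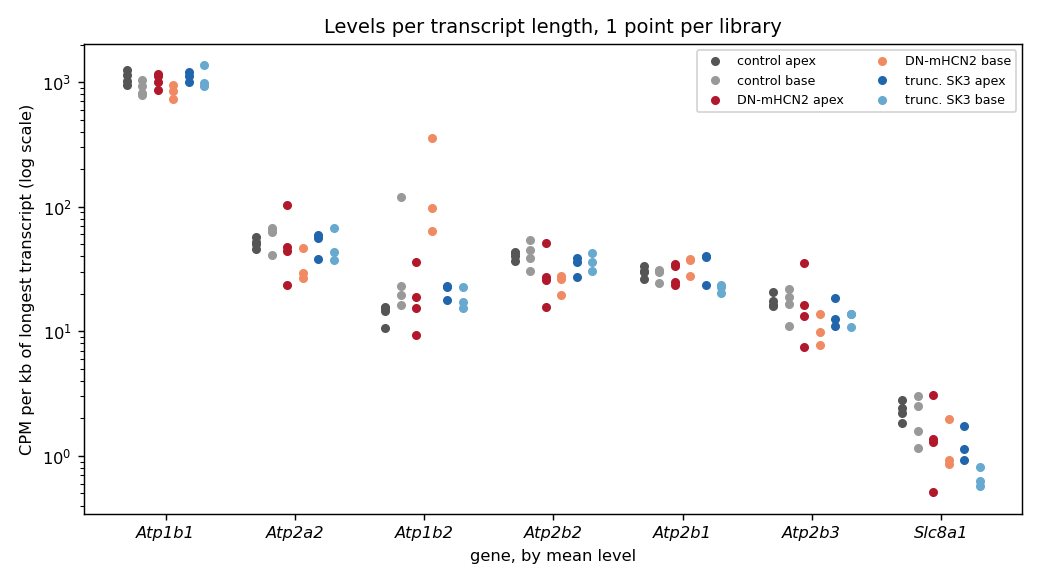
CPM per kb of the longest transcript (log scale) for the 7 genes, ordered by mean, with 1 point per library coloured by group. Atp1b1 lies above and Slc8a1 below the other genes in every library, and the libraries of Atp1b2 spread the most.

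The genes also differed in how far they varied between libraries. The coefficient of variation of CPM over the 21 libraries was 16.0% for Atp1b1, 20.1% for Atp2b1, 28.2% for Atp2b2, 34.8% for Atp2a2, 39.3% for Atp2b3, 52.0% for Slc8a1 and 170% for Atp1b2. For Atp1b1 and Atp2b1 this was near the median of genes within 2-fold of the same level (17.4% and 20.1%). For Atp1b2 that median was 20.3%, and 99.4% of the 2267 genes of similar level varied less.

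**Figure D2:**
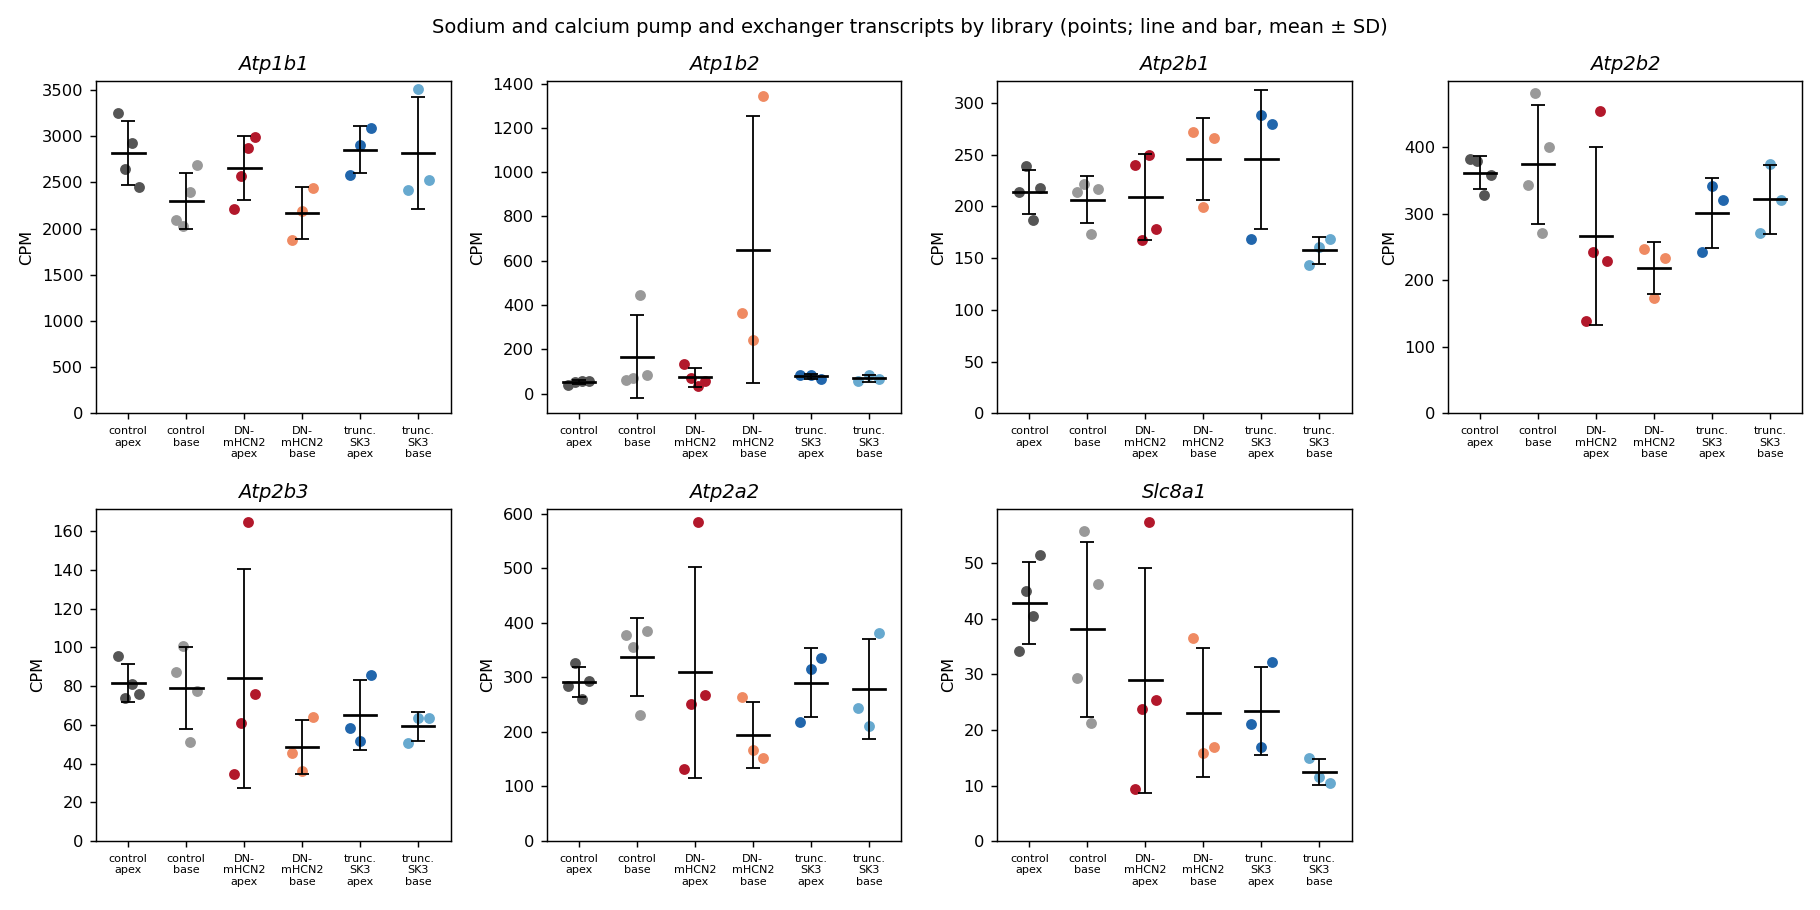
CPM of each gene in the 21 libraries, by group; points are libraries, lines are group means and bars are SD. Atp1b2 reaches 1343 CPM in a DN-mHCN2 base library, and Slc8a1 lies between 10.54 and 14.99 CPM in the 3 base libraries with truncated SK3.

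Each construct was compared with control, and base with apex, to ask whether the pump and exchanger transcripts changed when either channel was impaired and whether they differed along the cochlea. None of the 7 genes passed an adjusted p of 0.05 in any of 13 comparisons with edgeR. Over both regions, 0 of 7 passed under DN-mHCN2, where 6.05% of all tested genes did, and 0 of 7 under truncated SK3, where 0.735% did. In the apex alone the shares of all genes that passed were 0.2% for DN-mHCN2 and 0.254% for truncated SK3, and in the base 2.14% and 0.147%. For base against apex they were 0.0% in control, 0.214% in DN-mHCN2, 0.0134% in truncated SK3 and 1.16% for the mean of the 3 conditions. The difference of a construct's effect between regions passed for 0.00668% of genes with DN-mHCN2 and 0.0% with truncated SK3, and DN-mHCN2 against truncated SK3 passed for 0.655%. An unadjusted p under 0.05 was reached under DN-mHCN2 by 3 of the 7 genes over both regions (22% of all genes), 0 in the apex (11.9%) and 3 in the base (18.5%), and under truncated SK3 by 1 (10.3%), 0 (8.51%) and 1 (5.51%). For base against apex the counts were 1 in control (4.82%), 2 in DN-mHCN2 (12.1%), 1 in truncated SK3 (9.58%) and 2 for the mean of the 3 conditions (14.4%). They were 0 (6.85%) and 1 (3.64%) for the difference between regions in the effect of DN-mHCN2 and of truncated SK3, and 2 (14.5%) for DN-mHCN2 against truncated SK3. DESeq2 called 1 of the 7 in 6 of the comparisons. It called Atp2b2 for DN-mHCN2 over both regions, where it called 11.4% of all genes, and Slc8a1 for truncated SK3 over both regions (2.23%). It called Atp1b2 for DN-mHCN2 in the base (7.54%), for base against apex in DN-mHCN2 (2.55%) and over the 3 conditions (3.84%), and for DN-mHCN2 against truncated SK3 (3.7%).

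The median log2 fold change of the 7 genes was -0.33 for DN-mHCN2 over both regions and -0.24 for truncated SK3, where the medians of all tested genes were 0.03 and 0.01. Under DN-mHCN2 the estimate was negative for 5 of 7 genes, and under truncated SK3 for 6 of 7. Both comparisons use the same 8 control libraries.

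**Figure D3:**
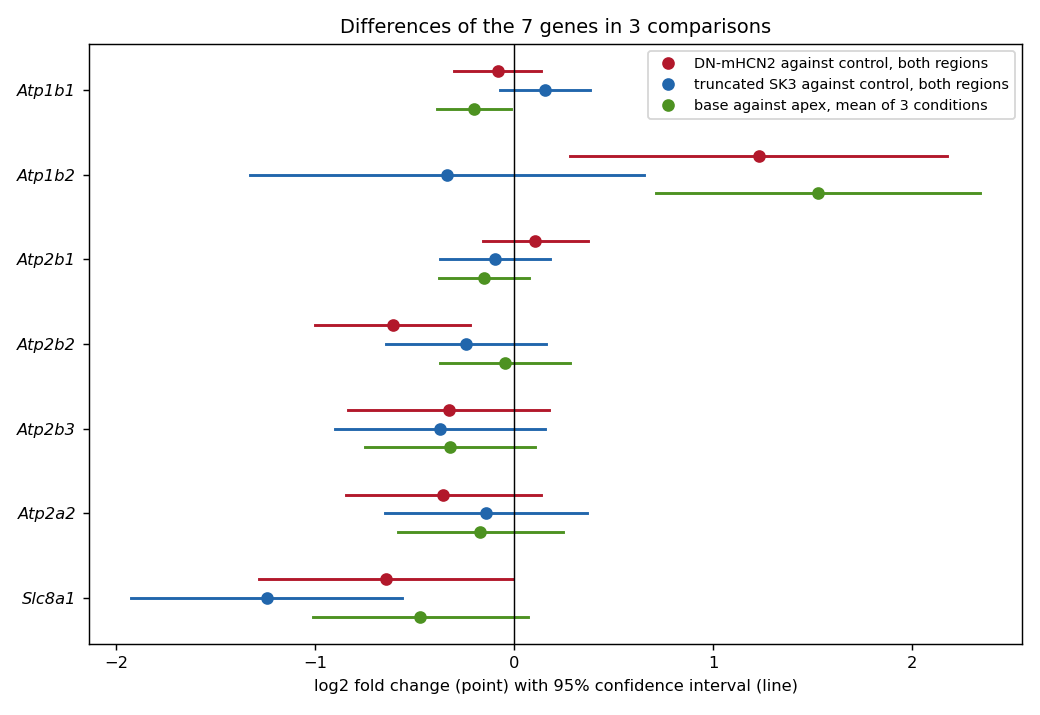
log2 fold changes of the 7 genes (points) with 95% confidence intervals (lines) from edgeR, for DN-mHCN2 against control and truncated SK3 against control over both regions and for base against apex over the 3 conditions. No gene passed an adjusted p of 0.05; the estimates farthest from 0 are 1.53 for Atp1b2 (base against apex) and -1.25 for Slc8a1 (truncated SK3).

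Atp1b1 (chromosome 1, 164437109 to 164458355, minus strand, 6 exons in the longest transcript) was the steadiest gene. Control apex libraries held 3249, 2643, 2922 and 2454 CPM and control base libraries 2089, 2031, 2396 and 2684 CPM. DN-mHCN2 gave 2213, 2565, 2868 and 2990.5 CPM in the apex and 1881, 2195 and 2437 CPM in the base. Truncated SK3 gave 2577, 2899 and 3085 CPM in the apex and 2414, 3514 and 2528.5 CPM in the base. In each region both constructs overlapped with control, and in each condition base overlapped with apex. The log2 fold change was -0.08 (95% interval -0.30 to 0.14) for DN-mHCN2 and 0.16 (-0.07 to 0.38) for truncated SK3 over both regions. Base minus apex over the 3 conditions was -0.20 (-0.39 to -0.01, adjusted p = 0.311). Its exons overlap Nme7 on the opposite strand by 575 bases (18.7% of the exon bases of Atp1b1), and Nme7 was at 2.70 to 14.04 CPM. How reads in the overlap were counted is not given, and their part in the level of Atp1b1 was not tested.

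Atp1b2 (chromosome 11, 69599736 to 69605942, minus strand, 6 exons in the longest transcript) was high in some base libraries. Its level was 39.9, 54.6, 58.8 and 57.6 CPM in the control apex and 60.7, 72.8, 447 and 86.6 CPM in the control base. In DN-mHCN2 it was 135, 70.1, 34.9 and 58.0 CPM in the apex and 365, 242 and 1343 CPM in the base. Truncated SK3 libraries held 85.3, 86.4 and 66.9 CPM in the apex and 57.5, 85.5 and 64.5 CPM in the base. Thus 4 libraries, all from the base, exceeded 200 CPM: control replicate 3 and DN-mHCN2 replicates 1, 2 and 3. Base libraries lay above all apex libraries in control (non-overlap in this direction in 2.64% of all genes) and in DN-mHCN2 (3.63%). The base minus apex log2 difference was 3.12 ± 0.681 (SE; adjusted p = 0.0689) in DN-mHCN2, 1.66 ± 0.625 (adjusted p = 0.8) in control, -0.20 ± 0.705 (adjusted p = 0.968) in truncated SK3, and 1.53 ± 0.386 (adjusted p = 0.0702) over the 3 conditions. DN-mHCN2 against control gave 1.23 ± 0.449 (adjusted p = 0.114) over both regions and 1.96 ± 0.659 (adjusted p = 0.118) in the base. These values moved with 2 of the high libraries. Without control base replicate 3, base minus apex in control was 0.48 (adjusted p = 1), and DN-mHCN2 against control was 1.82 (adjusted p = 0.00546) over both regions and 3.15 (adjusted p = 0.00675) in the base. Without DN-mHCN2 base replicate 3, base minus apex in DN-mHCN2 was 2.04 (adjusted p = 0.276), and DN-mHCN2 against control was 0.68 (adjusted p = 0.366) over both regions and 0.87 (adjusted p = 0.533) in the base. Base minus apex in DN-mHCN2 passed without its base replicate 1 (3.41, adjusted p = 0.0366) or without its apex replicate 1 (3.58, adjusted p = 0.0419). In the apex, truncated SK3 libraries lay above all control libraries (non-overlap in 5.02% of genes), with a log2 difference of 0.59 ± 0.656 (adjusted p = 0.887).

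Of the libraries high in Atp1b2, 3 also held transcripts of marginal cells of the stria vascularis, which secrete potassium into the endolymph and use Atp1b2 in their pump. Kcne1, which encodes a subunit of the potassium channel of these cells, was at 166 CPM in control base replicate 3, 123 in DN-mHCN2 base replicate 1 and 454 in DN-mHCN2 base replicate 3, and at most 2.33 CPM in the other 18 libraries. Kcnq1, the pore subunit of the same channel, was at 89.2, 46.7 and 130 CPM in these libraries and between 1.23 and 13.6 CPM elsewhere. All 7 genes of a marginal cell list, written after the values of Atp1b2 were seen, were at 1 CPM or more in each of the 3, with sums of 519, 376 and 865 CPM. In the other 18 libraries, 2 to 4 of the 7 reached 1 CPM, the sums were 41.0 to 220 CPM, and the defining markers Kcne1 and Bsnd had medians of 0.193 CPM and 0 over all 21. Slc12a2, the sodium, potassium and chloride cotransporter on the same list, did not set the 3 libraries apart: it was at 186, 171 and 129 CPM in them and 30.2 to 209 CPM in the other 18, where it made up most of each sum. DN-mHCN2 base replicate 2, with 242 CPM of Atp1b2, had 0.278 CPM of Kcne1, and it and replicate 3 had 1235 and 1354 CPM of macrophage markers, against 5.30 to 410 CPM in the other libraries. Without the 3 libraries, a choice made after seeing the data, base minus apex over the 3 conditions was 0.65 (adjusted p = 0.196), and DN-mHCN2 against control was 1.10 (adjusted p = 0.0383) over both regions, a call that rests on a single base library of DN-mHCN2. The part of marginal cells or macrophages in the values was not tested.

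**Figure D4:**
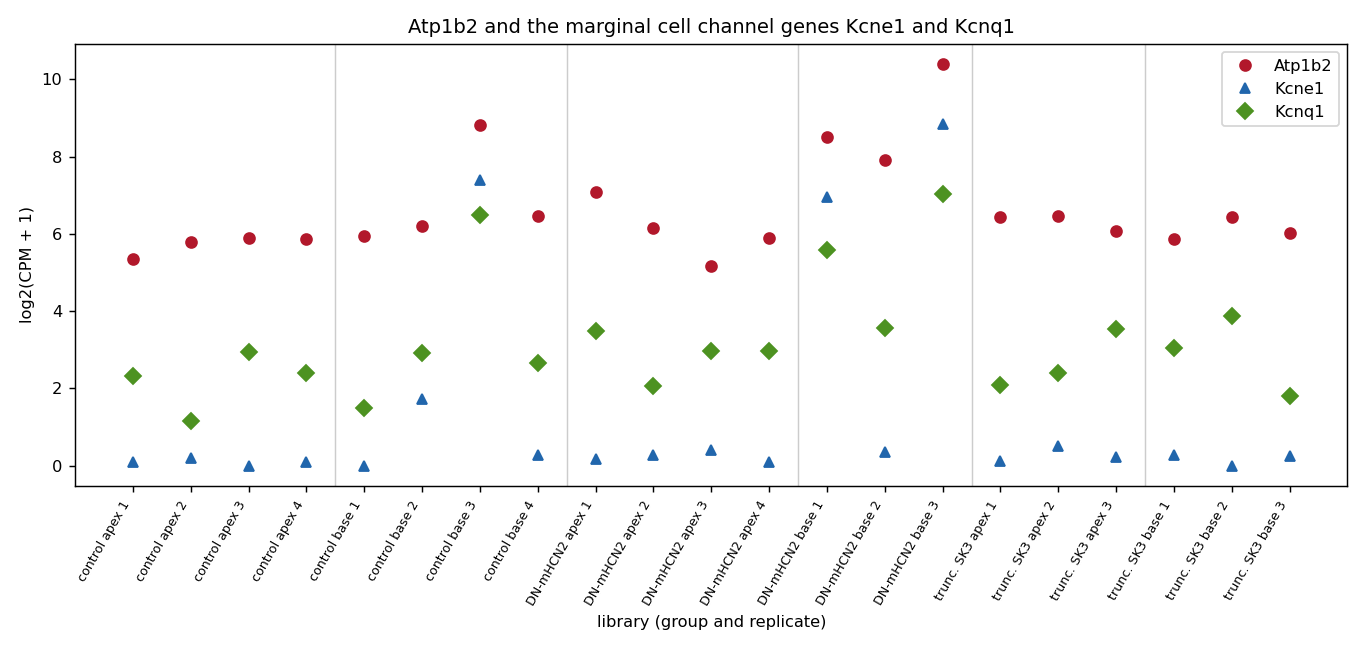
log2(CPM + 1) of Atp1b2 and the marginal cell channel genes Kcne1 and Kcnq1 in the 21 libraries, separated by group. Kcne1 lies between 123 and 454 CPM in control base replicate 3 and DN-mHCN2 base replicates 1 and 3, where Atp1b2 lies between 365 and 1343 CPM.

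Atp2b1 (chromosome 10, 98914406 to 99026143, plus strand, 21 exons in the longest transcript) encodes the widely expressed pump PMCA1. It was at 214, 238.5, 187 and 217 CPM in the control apex and 214, 222, 173 and 217 CPM in the control base. DN-mHCN2 libraries held 240.0, 168, 249 and 178 CPM in the apex and 271.5, 200 and 266 CPM in the base. Truncated SK3 libraries held 168, 289 and 280 CPM in the apex and 143, 160 and 169 CPM in the base. The 3 base libraries of truncated SK3 lay below all 4 control base libraries (non-overlap in this direction in 4.55% of genes), by -0.39 ± 0.190 on the log2 scale (adjusted p = 0.907). Base minus apex in truncated SK3 was -0.64 ± 0.202 (unadjusted p = 0.00465, adjusted p = 0.332 with edgeR), and the ranges overlapped, since apex replicate 1 (168.2 CPM) lay just below base replicate 3 (168.7 CPM). The difference of the truncated SK3 effect between base and apex was -0.59 ± 0.266 (adjusted p = 0.9999). Over both regions the log2 fold changes were 0.11 (95% interval -0.16 to 0.37) for DN-mHCN2 and -0.10 (-0.37 to 0.18) for truncated SK3. Schwann and satellite glia markers summed to 41816 CPM in truncated SK3 base replicate 1, which had the lowest Atp2b1, against 9206 to 26301 CPM in the others.

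Atp2b2 (chromosome 6, 113743831 to 114042613, minus strand, 22 exons in the longest transcript), which encodes PMCA2, came nearest to the threshold under DN-mHCN2. Control libraries held 382, 379, 328 and 359 CPM in the apex and 343, 482, 271 and 400.1 CPM in the base. DN-mHCN2 libraries held 138, 242, 455 and 229 CPM in the apex and 247, 173 and 234 CPM in the base. Of the 7 DN-mHCN2 libraries, 6 lay below all 8 control libraries, and apex replicate 3, at 455 CPM, lay above all but 1 of them. The log2 fold change over both regions was -0.61 ± 0.187 (95% interval -1.0 to -0.22, adjusted p = 0.0556). Without DN-mHCN2 apex replicate 3 it was -0.80 (adjusted p = 0.00279), without control base replicate 3 it was -0.67 (adjusted p = 0.047), and DESeq2 gave -0.59 (adjusted p = 0.0248), while over the 23 alternatives the adjusted p ran from 0.00279 to 0.291. The largest of these came from leaving out DN-mHCN2 base replicates 2 and 3, which are rich in macrophage markers. In the base the ranges did not overlap (9.03% of all genes were lower without overlap), at -0.78 ± 0.277 (adjusted p = 0.132). Truncated SK3 libraries held 242, 342 and 320.2 CPM in the apex and 271, 374 and 320.0 CPM in the base, which gave -0.24 (95% interval -0.64 to 0.16). The 2 constructs differed by -0.37 (-0.78 to 0.04, adjusted p = 0.409), so a difference between their effects was not shown.

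Atp2b3 (chromosome X, 73503086 to 73571005, plus strand, 22 exons in the longest transcript) encodes PMCA3, a pump found mainly in the nervous system. It was at 95.3, 73.9, 81.0 and 75.8 CPM in the control apex and 87.4, 101, 50.9 and 77.5 CPM in the control base. DN-mHCN2 libraries held 34.6, 61.0, 165 and 75.8 CPM in the apex and 45.6, 36.3 and 63.8 CPM in the base, and truncated SK3 libraries 58.1, 51.5 and 85.5 CPM in the apex and 50.6, 63.5 and 63.4 CPM in the base. All groups overlapped with their controls, and DN-mHCN2 apex held both the lowest and the highest library of the series. The log2 fold changes were -0.33 (95% interval -0.84 to 0.18) for DN-mHCN2 and -0.37 (-0.90 to 0.15) for truncated SK3 over both regions. Base minus apex in DN-mHCN2 was -0.79 ± 0.362 (adjusted p = 0.387).

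Atp2a2 (chromosome 5, 122453513 to 122502225, minus strand, 21 exons in the longest transcript) was at 284, 327, 261 and 293 CPM in the control apex and 377, 355, 231 and 386 CPM in the control base. DN-mHCN2 libraries held 132, 250.4, 585 and 268 CPM in the apex and 263, 167 and 152 CPM in the base. The base libraries of DN-mHCN2 were low but overlapped with control base replicate 3, at -0.80 ± 0.350 on the log2 scale (adjusted p = 0.23). In the apex the difference was 0.09, and the difference between the regional effects was -0.88 ± 0.472 (adjusted p = 0.766). Truncated SK3 libraries held 218, 316 and 336 CPM in the apex and 244, 210.1 and 382 CPM in the base, and their difference from control over both regions was -0.14 (95% interval -0.65 to 0.37). Over both regions DN-mHCN2 gave -0.36 (-0.85 to 0.14), and -0.60 (adjusted p = 0.0488) without DN-mHCN2 apex replicate 3.

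Slc8a1 (chromosome 17, 81373105 to 81738377, minus strand, 8 exons in the longest transcript) was lowest under truncated SK3. Control libraries held 34.2, 45.1, 40.5 and 51.6 CPM in the apex and 29.3, 55.9, 21.2 and 46.2 CPM in the base. Truncated SK3 libraries held 21.1, 17.0 and 32.3 CPM in the apex and 14.99, 11.6 and 10.54 CPM in the base. In each region all truncated SK3 libraries lay below all control libraries, as did 6.77% of genes in the apex and 4.55% in the base, although the ranges overlapped when the regions were joined. The log2 fold change over both regions was -1.25 ± 0.327 (95% interval -1.93 to -0.57), which corresponds to 0.422 of the control level, with an adjusted p of 0.0935. In the base it was -1.62 ± 0.470 (adjusted p = 0.508) and in the apex -0.87 ± 0.455 (adjusted p = 0.629), and the difference between these was -0.76 ± 0.633 (adjusted p = 0.9999). The call depended on the fit: DESeq2 gave an adjusted p of 0.0149 and edgeR on the control and truncated SK3 groups alone 0.01, whereas leaving out 1 library gave no call in 14 fits. Base libraries of truncated SK3 also lay below its apex libraries (non-overlap in 6.37% of genes), at -0.92 ± 0.484 (adjusted p = 0.562). DN-mHCN2 libraries held 9.41, 23.8, 57.4 and 25.3 CPM in the apex and 36.5, 15.8 and 17.0 CPM in the base, overlapping with control, at -0.64 ± 0.306 (adjusted p = 0.223), and -0.92 (adjusted p = 0.0417) without apex replicate 3. DN-mHCN2 against truncated SK3 gave 0.60 (95% interval -0.09 to 1.29).

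Atp2b2, Atp2b3, Atp2a2 and Slc8a1 varied together from library to library. Over 21 libraries, Pearson's r of log2(CPM + 1) for their 6 pairs was 0.634 to 0.81 and Spearman's rho 0.632 to 0.738, with p-values of r adjusted over all 21 pairs of the genes of 0.00021 to 0.00598 (two-sided permutation test, 100000 resamples). With each group's mean removed, r was 0.749 to 0.868 (adjusted permutation p 0.042 for 4 pairs and 0.075 for 2), whereas rho was 0.452 to 0.648 and passed for 0 of the 6 pairs (adjusted permutation p 0.0783 to 0.208). Without the 2 libraries farthest from the median of the first gene, r was 0.458 to 0.686. Atp2b2 with Slc8a1 (r = 0.505, adjusted permutation p = 0.0726) and Atp2a2 with Slc8a1 (r = 0.458, adjusted permutation p = 0.116) then no longer passed, with unadjusted permutation p of 0.0276 and 0.0497 over 19 libraries. The other pairs that passed by r over 21 libraries were negative, Atp1b2 with Atp2a2 (r = -0.617, rho = -0.504, adjusted permutation p of r = 0.00819) and with Atp2b3 (r = -0.538, rho = -0.578, adjusted permutation p of r = 0.0379). By rho, the pair with Atp2b3 passed (adjusted permutation p = 0.0208) and the pair with Atp2a2 did not (adjusted permutation p = 0.0557). With the group means removed, r was -0.639 for Atp2a2 (adjusted permutation p = 0.042) and -0.448 for Atp2b3 (adjusted permutation p = 0.203). By rho neither then passed (adjusted permutation p 0.0783 and 0.357). Without the 2 libraries farthest in Atp1b2, r was -0.551 (adjusted permutation p = 0.0545) and -0.751 (adjusted permutation p = 0.00189). The 4 libraries high in Atp1b2 stand apart in these pairs, and the relation among the others was not tested. DN-mHCN2 apex replicate 3 was the highest library of its group for all 4 genes and replicate 1 the lowest. Replicate 3 had 19131 CPM of neuron markers, the highest sum of the series, and 1138 CPM of supporting cell markers, while replicate 1 had 13984 CPM of neuron markers and 10241 CPM of supporting cell markers. The part of these in the shared variation was not tested. The permutation tests set r against 0, and whether these 4 genes vary together more than other genes do was not tested. Over 21 libraries, the most similar of 9944 genes had a higher r than any of the 6 pairs. A highest value over so many genes is no yardstick for 6 fixed pairs. These most similar genes were Iqsec1 for Atp2a2 (0.943), Kif5c for Atp2b2 (0.915), Vps13d for Slc8a1 (0.901) and Pdzd8 for Atp2b3 (0.889).

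**Figure D5:**
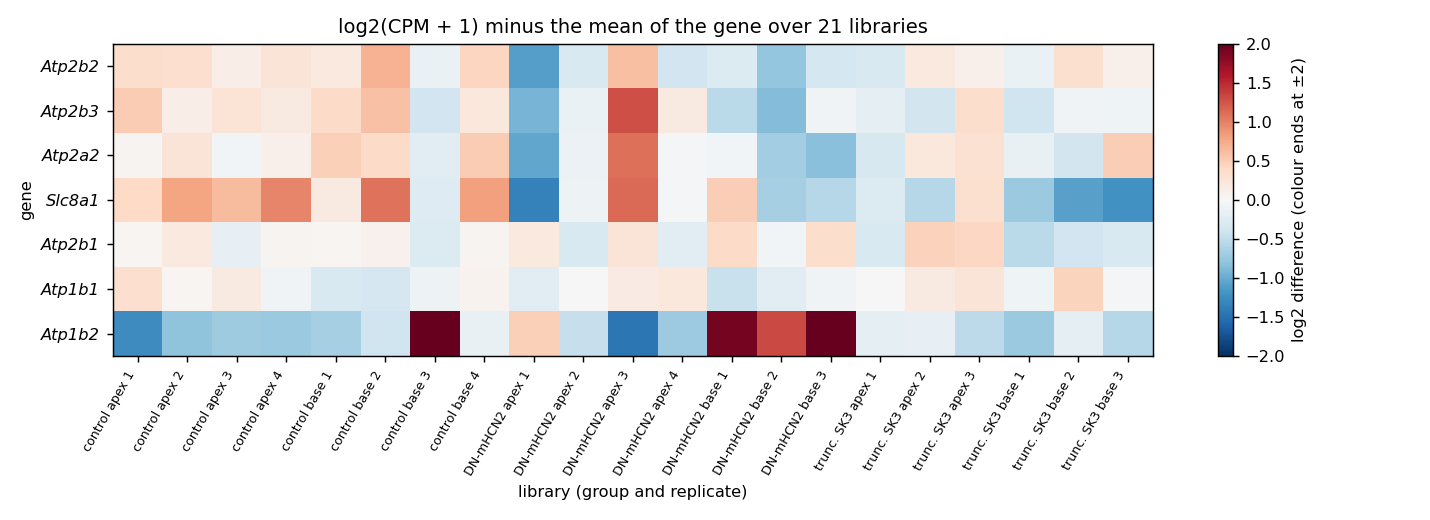
log2(CPM + 1) of each gene minus its mean over the 21 libraries (colour, ends at ±2), by library. Atp2b2, Atp2b3, Atp2a2 and Slc8a1 are all low in DN-mHCN2 apex replicate 1 and all high in DN-mHCN2 apex replicate 3, while Atp1b2 is high in 4 base libraries.

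The relation of each gene to the summed neuron markers and to the summed Schwann and satellite glia markers was computed over 21 libraries, 14 relations in all. Neuron markers rose with Atp1b1 (r = 0.608, rho = 0.536, adjusted permutation p of r = 0.0132) and with Atp2b3 (r = 0.652, rho = 0.631, adjusted permutation p of r = 0.0131). By rho, Atp2b3 passed (adjusted permutation p = 0.0204) and Atp1b1 did not (adjusted permutation p = 0.06). Schwann and satellite glia markers went against Atp2b1 (r = -0.704, rho = -0.677, adjusted permutation p of r = 0.00378 and of rho = 0.0165). Without the 2 libraries farthest from the median of the marker sum, r was 0.458, 0.536 and -0.57, and none of the 3 passed the adjusted threshold (unadjusted permutation p 0.0491, 0.0174 and 0.0118 over 19 libraries). With the group means removed, r was 0.609, 0.669 and -0.54 for the same relations (adjusted permutation p 0.0331, 0.0114 and 0.0626). Schwann and satellite glia markers then also went against Atp2b2 (r = -0.667, adjusted permutation p = 0.0114), which they had not over all libraries (r = -0.00412). The adjusted permutation p of rho was then 0.0703 for Atp1b1, 0.0056 for Atp2b3, 0.0703 for Atp2b1 and 0.0163 for Atp2b2.

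Genes with the most similar profile over the 21 libraries were listed by Pearson's r of log2(CPM + 1) among 9944 genes at 10 CPM or more on average. For Atp1b2 they were Lrpap1 (r = 0.965), Dnase1 (r = 0.888) and Kcne1 (r = 0.881). Dnase1 and Kcne1 had medians of 5.05 and 0.193 CPM and highest values of 972 and 454 CPM. Both thus reached the mean of 10 CPM only through their highest libraries, and their r leans on these. Kcne1 is also on the marginal cell list, which was written after the values of Atp1b2 were seen. For Atp2a2 they were Iqsec1 (r = 0.943), Cadps (r = 0.938) and Mycbp2 (r = 0.937), and for Atp2b2 Kif5c (r = 0.915), Nrg1 (r = 0.896) and Spock2 (r = 0.894). Slc8a1 was most like Vps13d (r = 0.901), Cacnb2 (r = 0.858) and Snx27 (r = 0.848), and Atp2b3 most like Pdzd8 (r = 0.889), Maf (r = 0.864) and Scn8a (r = 0.863). The nearest genes had r of 0.812 for Atp2b1 (Fam160b1, then Zc3h6 and Sertad2) and 0.783 for Atp1b1 (Cerk, then Gabarapl1 and Lhfpl4). All points share library composition and depth.

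Other genes of these pathways were read from 4 lists, which were chosen with earlier results of these data known. Their counts beside the share of all genes therefore describe the lists and do not test them. Of the 12 partners of the Na/K-ATPase that are reported here and were tested, 0 passed with edgeR under DN-mHCN2 over both regions, and their median log2 fold change was 0.17. An unadjusted p under 0.05 was reached by 1 of them (22% of all tested genes reached it). It was Fxyd1, which encodes phospholemman, a small regulator of the pump (0.55 ± 0.170, adjusted p = 0.0588). DESeq2, which called 11.4% of all genes, called the same gene, named after its values were seen. Of 11 other calcium pumps and exchangers, 1 passed under DN-mHCN2 over both regions, where 6.05% of all tested genes did: Slc24a2, a potassium-dependent Na/Ca exchanger of neurons. It was at 218 to 393 CPM in control, 143 to 268 CPM in truncated SK3 and 43.8 to 221 CPM in DN-mHCN2 libraries. In the apex, truncated SK3 libraries (143 to 186 CPM) lay below all control libraries (218 to 270 CPM), as did 6.77% of genes. In the base they overlapped with control. Under DN-mHCN2, Slc24a2 fell against control by 1.45 ± 0.228 (adjusted p = 0.000803), and it passed in all 15 fits that left out 1 library. In the base it fell by 1.98 ± 0.345 (adjusted p = 0.00526), with no overlap (9.03% of all genes were lower without overlap). DESeq2 called Slc24a2 and also Slc8b1, a mitochondrial sodium and calcium exchanger named after its values were seen (0.92 ± 0.305, adjusted p = 0.0739 with edgeR).

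Of 7 tested partners and regulators of calcium pumps, 2 passed under DN-mHCN2 over both regions, where 6.05% of all tested genes did. Nptn and Bsg encode neuroplastin and basigin, related proteins that bind plasma membrane calcium pumps as subunits. Nptn fell by 0.63 ± 0.102 (adjusted p = 0.00103), from 465 to 626 CPM in control to 267 to 472 CPM in DN-mHCN2, while Bsg rose by 0.45 ± 0.120 (adjusted p = 0.0321), from 777 to 1031 CPM to 925 to 1772 CPM. Truncated SK3 libraries held 402 to 541 CPM of Nptn and 1031.5 to 1847 CPM of Bsg. In the apex their Nptn (402 to 460 CPM) lay below all control libraries (465 to 617 CPM), as did 6.77% of genes. In the base their Nptn overlapped with control. Under DN-mHCN2, Nptn passed in all 15 fits that left out 1 library and Bsg in 6 of 15. In the base, Nptn fell by 0.83 ± 0.151 (adjusted p = 0.0058), with no overlap (9.03% of all genes). Of 20 genes of calcium stores and mitochondrial calcium, 2 passed under DN-mHCN2 over both regions (6.05% of all tested genes), both higher. They were Orai1, the plasma membrane channel of store-operated calcium entry (1.27 ± 0.343, adjusted p = 0.0333, 7 of 15 fits that left out 1 library), and Tmco1, a calcium leak channel of the endoplasmic reticulum (0.45 ± 0.111, adjusted p = 0.0211, 13 of 15 fits). Orai1 lay at 2.24 to 8.27 CPM in control and 9.95 to 25.2 CPM in DN-mHCN2, with no overlap (0.722% of all genes were higher without overlap). In truncated SK3 it lay at 4.28 to 14.8 CPM.

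With edgeR, 0 of the 50 tested genes of the 4 lists passed in truncated SK3 against control over both regions, where 11 had an unadjusted p under 0.05 (10.3% of all genes did) and DESeq2 called 3 (Bsg, Fxyd1 and Fxyd7, named after their values were seen; 2.23% of all genes). DN-mHCN2 in the apex likewise gave 0, with 7 at an unadjusted p under 0.05 (11.9% of all genes) and 1 called by DESeq2 (Tmco1; 1.59% of all genes). Base against apex over the 3 conditions gave 1 (1.16% of all tested genes passed), Atp2a3, which encodes SERCA3. It was at 0 to 1.70 CPM in base libraries and 0.203 to 284 CPM in apex libraries and fell by 4.27 ± 1.00 (adjusted p = 0.0499). It passed in 4 of 21 fits that left out 1 library, and its highest value came from truncated SK3 apex replicate 2. Hair cell markers, which do not include Atp2a3, summed to 12.5 to 1236 CPM in apex and 6.22 to 76.7 CPM in base libraries, with 726 CPM in that library, and their part in the difference was not tested. DN-mHCN2 against truncated SK3 gave 1 (0.655% of all tested genes passed), Fxyd3, a small regulator of the Na/K-ATPase. It was at 5.69 to 10.9 CPM in DN-mHCN2 and 12.7 to 37.9 CPM in truncated SK3, with no overlap (0.261% of all genes were lower without overlap), at -1.39 ± 0.289 (adjusted p = 0.0249, 11 of 13 fits). Slc24a2, Nptn, Bsg, Orai1 and Tmco1 did not pass between the constructs with edgeR. DESeq2 called 6 list genes there (3.7% of all genes), among them Slc24a2, Nptn and Tmco1.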

How the data were processed

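The authors deposited a single table of unnormalized read counts, in which genes are rows named by symbol and the 21 libraries are columns. Per the submitters' processing notes, the tools include HISAT2, Trimmomatic and DESeq2 and the genome is mm10 or GRCm38; the counter, its annotation and its use of strand are not given in the sources used here, so reads of overlapping genes on opposite strands cannot be told apart. The 7 genes and all lists were chosen with earlier results of these data known. Genes were filtered with filterByExpr, scaled with TMM factors and fitted in edgeR 4.0.16 (R 4.3.3) by the robust quasi-likelihood test, with 1 mean per group over all 21 libraries and Benjamini-Hochberg adjustment over 14968 genes at 0.05. The named genes were the 7, up to 4 called genes per list and comparison by smallest p, and for each of the 7 the 3 genes of highest r; some genes of the naming rule and of the Na/K-ATPase list are not reported here. Alternatives were RLE factors, no filter, DESeq2 1.42.0, only the groups compared, a replicate block, and leaving out each library or libraries rich in other cells. On simulated counts with 14968 genes, 8.96%, 34.3% and 74.2% of genes changed 1.5-fold, 2-fold and 4-fold were called for DN-mHCN2 against control over both regions, and 2.99%, 46.3% and 74.2% for truncated SK3. Coordinates and transcript lengths are from GENCODE M21 (GRCm38), and promoters from RefSeq. Depth was 10411634 to 15138780 counts per library, which gave 109 counts or more for each of the 7 genes in every library. Figures were drawn with matplotlib 3.10.9.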

Additional observations from a re-analysis of the deposited data

Results flagged for a closer look

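A gap between the highest or lowest library and its nearest neighbour above Dixon's 95% critical value, as a share of the whole range, was looked for in 42 groups of 4 libraries; chance gives this in about 1 in 20 groups. It was found in 3. Atp1b2 was high in control base replicate 3 (447.5 CPM, gap 0.933 of the range). Atp2b1 was low in the same library (172.8 CPM, 0.838), as was Orai1 (2.239 CPM, 0.853).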

How the results depend on the processing

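None of the 7 genes was called in any main comparison. DESeq2 called 1 in each of 6 comparisons, named above. On the groups compared alone, edgeR called 1 for truncated SK3 over both regions. Leaving out 1 library gave 0 to 3 for DN-mHCN2 over both regions (3 without DN-mHCN2 apex replicate 3), 0 to 1 for DN-mHCN2 in the base, and 0 to 1 for base against apex in DN-mHCN2. Calls over all genes also moved in these fits, to 520 to 1429, 107 to 569 and 4 to 178. The main comparisons had 906, 320 and 32. Without the 2 libraries rich in supporting cell or fibroblast markers, 1 was called for DN-mHCN2 in the base, 2 for base against apex in DN-mHCN2 and 1 for base against apex over the 3 conditions. Calls over all genes for base against apex in DN-mHCN2 then rose from 32 to 551. Without the 3 libraries rich in marginal cell genes, 1 was called for DN-mHCN2 over both regions. Of 1645 fold changes of the 7 genes under an alternative, 20 were called and 0 of these had another direction than in the main comparison; 82 of the 1625 that were not called had another sign. The 3 relations with markers that passed by r became 0 without the 2 farthest libraries. The 8 pairs of genes that passed by r became 5 with the group means removed. With the union of exons, 5 of 7 genes kept their place per length.

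No pairing of libraries by replicate number was clear over all pairs. The median correlation of deviations was -0.025 over 48 pairs with the same number, most of them across conditions, and 0.006 over pairs with different numbers. For the 10 pairs of apex and base with the same number in the same condition it ran from -0.0987 to 0.192. These few pairs do not settle whether apex and base of a condition were paired. With the replicate number as a block, 0 of the 7 genes were called in every comparison, and calls over all genes were 602 instead of 906 for DN-mHCN2, 69 instead of 110 for truncated SK3, and 80 instead of 173 for base against apex over the 3 conditions. Calls over all genes ran from 329 to 1661 for DN-mHCN2 over both regions, 16 to 232 in apical and 87 to 1101 in basal libraries, from 61 to 320 for truncated SK3 over both regions, 19 to 156 in apical and 11 to 81 in basal libraries, from 0 to 83 for base against apex in control and 0 to 212 in truncated SK3, from 0 to 551 for base against apex in DN-mHCN2 and 41 to 571 over the 3 conditions, and from 7 to 540 for DN-mHCN2 against truncated SK3. The cause of these changes was not tested. With 3 or 4 libraries per group, a 2-fold change over both regions was called in 34.3% (DN-mHCN2) and 46.3% (truncated SK3) of simulated cases. These were 67 genes drawn at random, so the rates need not hold for 1 region or for genes as variable as Atp1b2. The part of depth in this was not tested.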
